A study of Mus musculus with 12 samples.

Results

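The genes described here are the enzymes of cholesterol synthesis, the enzymes that make, elongate and desaturate fatty acids, the SREBP transcription factors with the proteins that hold or escort them, and the liver X receptors (LXRs) with genes they switch on. They came from a list of 40 gene symbols grouped by function, and each gene was read from its brightest single-gene probe set by mean over all arrays. Of these, 38 had a microarray probe set assigned to that gene alone, out of 18193 genes measured in the same way, while Acat2 and Nr1h2 were not analysed here. By role the 38 were 17 sterol synthesis enzymes, 5 SREBP factors and regulators, 2 genes of sterol transport and oxysterol synthesis, 8 fatty acid enzymes and 6 LXR genes.

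Expression was read on 12 Affymetrix 3′ arrays, 3 per group, from mouse bone marrow-derived macrophages (BMDMs), which are marrow cells grown into macrophages with the growth factor M-CSF. The groups were Nos2-/- BMDMs stimulated with LPS + IFNγ, WT BMDMs stimulated in the same way, untreated Nos2-/- BMDMs and untreated WT BMDMs. Stimulation was 100 ng/mL of LPS, a bacterial cell wall component, with 50 ng/mL of the cytokine IFNγ for 8 h, and the methods give the untreated cells PBS as vehicle whereas their labels call them cells from before stimulation. Nos2-/- mice (B6.129P2-Nos2tm1Lau/J) lack inducible nitric oxide (NO) synthase in every cell from birth and were set against C57BL/6 mice of matched age and sex, 6 to 10 weeks old, bred in the same room. The labels call the arrays of a group biological replicates, but do not say whether each came from another animal, so p-values measure the spread between these arrays.

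Array medians lay between 5.14 and 5.21 on the log2 scale, and arrays of 1 group correlated at 0.996 or more across probe sets. The Nos2 probe set read 7.45 to 7.88 in stimulated Nos2-/- and 9.64 to 9.81 in stimulated WT arrays, against 5.15 to 5.41 in untreated Nos2-/- and 5.40 to 5.65 in untreated WT arrays. The place of this probe set relative to the deleted part of the gene is not given in the sources used here, so it is only a partial check of genotype. All 8 macrophage markers (Adgre1, Csf1r, Itgam, Cd68, Fcgr1, Mertk, Cd14 and Lyz2) lay above the median gene, and their summed signal stayed between 16.11 and 16.19 on every array, although with stimulation 5 of the 8 were called lower and 2 higher in each genotype, among them Cd68 (log2 change -0.91 in Nos2-/- and -0.87 in WT) and Fcgr1 (1.27 in Nos2-/- and 1.24 in WT). The summed signal of the 7 neutrophil markers measured moved with stimulation, at 12.88 to 12.94 in stimulated Nos2-/- and 12.52 to 12.58 in stimulated WT arrays, against 10.24 to 10.87 in untreated Nos2-/- and 9.96 to 10.55 in untreated WT arrays. Of these 7, 3 were called higher and 0 lower in each genotype: S100a8 (log2 change 3.57 in Nos2-/- and 3.39 in WT), Camp (0.96 in Nos2-/- and 0.82 in WT) and Mpo (0.46 in Nos2-/- and 0.29 in WT). Of 5 fibroblast markers 2 were called higher in each genotype, led by Dcn (log2 change 1.03 in Nos2-/- and 0.96 in WT), and 0 of 4 adipocyte markers were called higher in Nos2-/- and 4 of 4 in WT. Of 6 dendritic cell markers, 1 was called higher in Nos2-/- and 4 in WT. Of all genes, 26.3% were called higher in Nos2-/- and 29.6% in WT. The log2 changes of the adipocyte markers overlapped, at 0.098 to 0.226 in Nos2-/- and 0.193 to 0.289 in WT. Most markers of these 3 cell types were dim: 0 of 5 fibroblast, 0 of 6 dendritic cell and 1 of 4 adipocyte markers lay above the median gene. Among the neutrophil markers 5 of 7 did. Tested for a response that differed by genotype, no adipocyte or dendritic cell marker was called. The part of other cells in the results was not tested. In RNA from whole cultures, fewer cells of a type and less RNA per cell cannot be told apart.

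Macrophages obtain cholesterol by making it from acetyl-CoA and by taking up lipoproteins. When membrane sterol is plentiful, INSIG proteins hold SCAP and the SREBP precursors in the endoplasmic reticulum. When sterol is scarce, SCAP escorts SREBPs to the Golgi, where proteases free the part that enters the nucleus and switches on sterol and fatty acid enzymes. For cholesterol alone, LXRs work in the other direction: they bind oxysterols and switch on its efflux, including the ATP-driven transporters ABCA1 and ABCG1.

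Promoter windows of 300 bases, from 250 before to 50 after the annotated start, were available for 30 of the 38 genes from RefSeq (GRCm38.p6). A CCAAT box (CCAAT, the sequence bound by the factor NF-Y, searched on both strands) stood in at least 1 window of each of the 14 sterol synthesis enzymes that had any, while 2 of 3 windows of Dhcr7 and 1 of 2 of Pmvk held none. Counted in the same way, with any window of a gene sufficing, the letters occurred in 41.1% of 27025 genes, in 42.0% of 14452 genes tested on the arrays, and in 46.4% of 1226 genes that fell at least 2-fold in both genotypes. They occurred in 4 of 5 SREBP factors and regulators, 2 of 5 fatty acid enzymes and 2 of 5 LXR genes. The sterol regulatory element searched as TCACNCCAC was found in 1 of the 14, Hmgcs1, against 1.44% of all genes, and the E-box CACGTG in 3 of the 14. The E-box occurred in 8.09% of all genes, 10.2% of those tested on the arrays and 13.7% of those that fell at least 2-fold in both genotypes. The 4 sterol enzymes shown first had mRNA that fell after stimulation, and they stand beside Mylip, the LXR target whose response differed between genotypes, and Abca1, the member that rose most in both. Capitals mark CCAAT or its reverse complement ATTGG, the sterol regulatory element in Hmgcs1 and the E-box in Abca1, and each sequence runs along the strand of the gene.
Hmgcs1 (chr13:119690101-119690400, plus strand): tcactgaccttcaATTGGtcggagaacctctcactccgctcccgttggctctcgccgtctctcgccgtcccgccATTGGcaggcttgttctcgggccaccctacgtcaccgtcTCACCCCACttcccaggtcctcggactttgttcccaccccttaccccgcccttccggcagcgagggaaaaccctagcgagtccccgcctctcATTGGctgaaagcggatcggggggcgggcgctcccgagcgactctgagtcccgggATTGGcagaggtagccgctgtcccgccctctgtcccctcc
Idi1 (chr13:8885356-8885655, plus strand): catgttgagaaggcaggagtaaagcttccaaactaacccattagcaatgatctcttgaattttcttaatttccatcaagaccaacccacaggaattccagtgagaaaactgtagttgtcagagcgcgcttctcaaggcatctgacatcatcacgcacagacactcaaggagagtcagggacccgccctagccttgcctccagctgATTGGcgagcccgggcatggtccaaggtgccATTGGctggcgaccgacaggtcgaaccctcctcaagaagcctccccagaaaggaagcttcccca
Cyp51 (chr5:4104648-4104947, minus strand): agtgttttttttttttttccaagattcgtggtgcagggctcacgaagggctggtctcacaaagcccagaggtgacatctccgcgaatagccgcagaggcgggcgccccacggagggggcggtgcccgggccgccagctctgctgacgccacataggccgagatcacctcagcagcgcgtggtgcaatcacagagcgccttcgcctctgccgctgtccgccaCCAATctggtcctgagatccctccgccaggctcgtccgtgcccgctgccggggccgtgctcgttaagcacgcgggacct
Msmo1 (chr8:64733529-64733828, minus strand): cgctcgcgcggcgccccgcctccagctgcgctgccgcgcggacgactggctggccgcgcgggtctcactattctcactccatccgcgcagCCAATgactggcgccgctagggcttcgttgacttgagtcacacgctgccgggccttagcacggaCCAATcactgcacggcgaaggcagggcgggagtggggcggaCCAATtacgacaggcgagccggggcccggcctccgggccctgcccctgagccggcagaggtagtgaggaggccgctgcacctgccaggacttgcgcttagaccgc
Mylip (chr13:45389492-45389791, plus strand): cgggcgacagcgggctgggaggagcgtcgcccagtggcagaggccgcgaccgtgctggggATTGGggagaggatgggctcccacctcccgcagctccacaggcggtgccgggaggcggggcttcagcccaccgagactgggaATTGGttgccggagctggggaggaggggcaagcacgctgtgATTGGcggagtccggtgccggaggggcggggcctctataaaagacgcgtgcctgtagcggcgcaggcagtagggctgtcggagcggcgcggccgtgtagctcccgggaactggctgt
Abca1 (chr4:53159846-53160145, minus strand): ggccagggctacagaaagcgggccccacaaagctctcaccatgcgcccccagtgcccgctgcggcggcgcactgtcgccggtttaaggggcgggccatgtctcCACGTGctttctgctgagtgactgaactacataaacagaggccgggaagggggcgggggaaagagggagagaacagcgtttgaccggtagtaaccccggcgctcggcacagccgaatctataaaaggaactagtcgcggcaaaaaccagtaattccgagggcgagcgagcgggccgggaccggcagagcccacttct
A match of letters is a description of the window and not evidence of binding, and the absence of one says only that the letters are not in these 300 bases.

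Stimulation lowered most of the 38 genes in both genotypes. In Nos2-/- BMDMs 31 fell, 4 rose and 3 were not called, against 28.2% of all genes called lower and 26.3% called higher (limma, Benjamini-Hochberg adjusted p under 0.05 over all genes). In WT BMDMs 29 fell, 6 rose and 3 were not called, against 28.4% of all genes called lower and 29.6% called higher. The median log2 fold change of the 38 was -0.88 in Nos2-/- and -0.80 in WT, where the medians of all genes were 0.05 in Nos2-/- and 0.08 in WT. In Nos2-/- 15 of the 38 fell and 2 rose by at least 2-fold, against 9.65% and 5.58% of all genes. In WT 14 fell and 1 rose by at least 2-fold, against 9.14% and 5.21% of all genes. Stimulated and untreated arrays did not overlap for 35 of 38 genes in Nos2-/- (60.5% of all genes) and 37 of 38 in WT (65.1%).

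**Figure D1:**
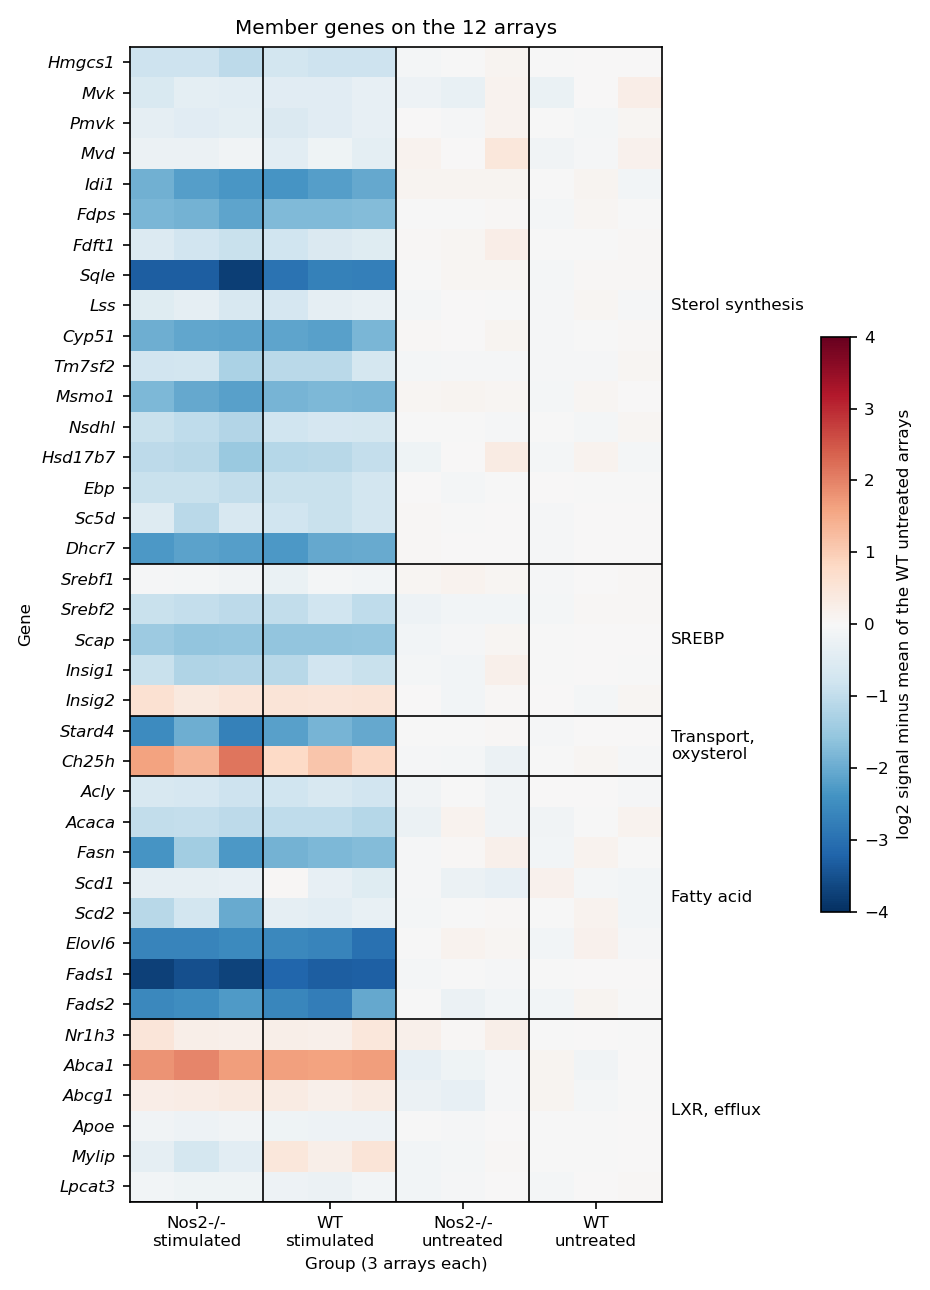
Heat map of the 38 genes (rows, grouped by role) on the 12 arrays (columns, 3 per group), coloured by log2 signal minus the mean of the untreated WT arrays. The sterol and fatty acid rows lie below 0 on the 6 stimulated arrays except Scd1 on 1 stimulated WT array, Abca1 and Ch25h are red there, and Mylip is blue on the 3 stimulated Nos2-/- arrays and red on the 3 stimulated WT arrays.

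Every measured sterol synthesis enzyme fell in both genotypes, 17 of 17, with a median log2 change of -0.91 in Nos2-/- and -0.83 in WT. Of the 4 probe sets of Fdft1, the squalene synthase gene, 2 were called lower and 1 higher in the WT response, and with its probe sets averaged it was at -0.45 in Nos2-/- and -0.23 in WT, still called in each. Averaged over the 17, the arrays stood 1.19 to 1.40 log2 units below the untreated WT mean in stimulated Nos2-/- BMDMs and 1.10 to 1.27 below it in stimulated WT BMDMs. Sqle (squalene epoxidase, which adds the first oxygen of the sterol branch) read 6.61, 6.59 and 6.15 in stimulated Nos2-/- against 9.87, 9.98 and 9.96 in untreated Nos2-/- arrays, and 6.95, 7.18 and 7.16 in stimulated WT against 9.82, 9.93 and 9.95 in untreated WT arrays. All stimulated arrays lay more than 2 log2 units below all untreated ones, and the fall was 11.2-fold in Nos2-/- (log2 change -3.49 ± 0.11 SE, adjusted p = 4.8e-12) and 6.97-fold in WT (-2.80 ± 0.11, adjusted p = 5.1e-11).

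Idi1, the isomerase that makes the isoprenoid building block dimethylallyl diphosphate, read 7.63, 7.37 and 7.23 in stimulated Nos2-/- against 9.67, 9.67 and 9.68 in untreated Nos2-/- arrays, and 7.20, 7.36 and 7.52 in stimulated WT against 9.54, 9.67 and 9.46 in untreated WT arrays. The falls were 4.80-fold in Nos2-/- (log2 change -2.26 ± 0.10) and 4.58-fold in WT (-2.20 ± 0.10), and no stimulated array reached an untreated one. Dhcr7, the reductase of the last step to cholesterol, read 5.14, 5.29 and 5.22 in stimulated Nos2-/- against 7.46, 7.42 and 7.44 in untreated Nos2-/- arrays, and 5.12, 5.38 and 5.41 in stimulated WT against 7.39, 7.43 and 7.45 in untreated WT arrays. It fell 4.67-fold in Nos2-/- (-2.22 ± 0.08) and 4.34-fold in WT (-2.12 ± 0.08). Cyp51, the lanosterol demethylase, fell 4.30-fold in Nos2-/- and 4.12-fold in WT, and Fdps, which makes farnesyl diphosphate, fell 3.85-fold in Nos2-/- and 3.37-fold in WT. Msmo1, the sterol C4-methyl oxidase, fell 4.26-fold in Nos2-/- and 3.57-fold in WT. With all probe sets of a gene averaged, Fdps was at -0.92 in Nos2-/- and -0.81 in WT, and Msmo1 at -1.34 in Nos2-/- and -1.29 in WT, all still called.

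The falls were uneven along the pathway. On their brightest probe sets, the early mevalonate kinases, the decarboxylase and Lss (lanosterol synthase) had the smallest falls. Mvk was at -0.35 in Nos2-/- and -0.41 in WT, and Pmvk at -0.43 in Nos2-/- and -0.46 in WT. Mvd was at -0.41 in Nos2-/- and -0.33 in WT. With probe sets averaged, Fdft1 had the smallest fall in WT (-0.23), and Mvd was at -0.51 in Nos2-/- and -0.46 in WT. Hmgcs1, the synthase that starts the mevalonate branch and carries the sterol regulatory element in its window, fell (log2 change -0.91 in Nos2-/- and -0.79 in WT). Of the remaining enzymes, on their brightest probe sets, Fdft1, Lss, Tm7sf2, Nsdhl, Ebp and Sc5d fell by less than 1 log2 unit in both genotypes. Hsd17b7 fell 2.40-fold in Nos2-/- and 2.09-fold in WT. With probe sets averaged this order turned, Sc5d being at -1.06 in Nos2-/- and -1.05 in WT. Hsd17b7 was then at -0.93 in Nos2-/- and -0.79 in WT. The number of enzymes called lower ranged from 13 to 17 over the other settings tried in both genotypes, the calls lost being those of Mvk, Mvd, Pmvk and Lss. Leaving out 1 array ended the call of Mvk without untreated replicate 3 of either genotype or without stimulated Nos2-/- replicate 1 or 3 (adjusted p of 0.055 to 0.17), and that of Mvd in WT without untreated replicate 3 or stimulated replicate 1 or 3 (0.065 to 0.11).

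The regulators of SREBP did not all move one way. Scap, the escort of SREBPs, read 7.83, 7.71 and 7.74 in stimulated Nos2-/- against 9.17, 9.24 and 9.37 in untreated Nos2-/- arrays, and 7.71, 7.71 and 7.72 in stimulated WT against 9.26, 9.28 and 9.29 in untreated WT arrays. The groups lay far apart, and the fall was 2.83-fold in Nos2-/- (log2 change -1.50 ± 0.06, adjusted p = 1.1e-10) and 2.95-fold in WT (-1.56 ± 0.06, adjusted p = 8.6e-11). With both Scap probe sets averaged the changes were -0.79 in Nos2-/- and -0.89 in WT, since the dimmer one was called in neither genotype. Srebf2, which encodes the SREBP that chiefly drives sterol genes, fell (log2 change -0.82 in Nos2-/- and -0.93 in WT). Srebf1, which encodes the SREBPs that drive fatty acid genes, was at -0.19 in Nos2-/- (adjusted p = 0.026) and -0.14 in WT (adjusted p = 0.074), so that the call was made in Nos2-/- alone, with a difference between the responses of -0.04 ± 0.09 (adjusted p = 0.91). Its adjusted p in Nos2-/- was 0.050 to 0.080 without untreated replicate 2 or 3 or stimulated replicate 2 or 3, and 0.048 in WT without stimulated replicate 2.

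The INSIG genes moved in opposite directions in both genotypes. Insig1, itself an SREBP target, fell 2.12-fold in Nos2-/- and 1.89-fold in WT. Insig2, the other INSIG gene, read 9.47, 9.23 and 9.33 in stimulated Nos2-/- against 8.86, 8.76 and 8.89 in untreated Nos2-/- arrays, and 9.38, 9.34 and 9.37 in stimulated WT against 8.86, 8.79 and 8.93 in untreated WT arrays. Stimulated and untreated arrays did not overlap, and Insig2 rose 1.42-fold in both genotypes (log2 change 0.51 ± 0.07 in each). With its probe sets averaged it rose by 0.35 in Nos2-/- and 0.33 in WT.

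Stard4, a carrier that moves sterol between membranes, and Ch25h, the enzyme that makes 25-hydroxycholesterol, also went opposite ways. Stard4 read 5.90, 6.45 and 5.70 in stimulated Nos2-/- against 8.40, 8.39 and 8.44 in untreated Nos2-/- arrays, and 6.25, 6.54 and 6.36 in stimulated WT against 8.38, 8.43 and 8.42 in untreated WT arrays. It fell 5.25-fold in Nos2-/- (-2.39 ± 0.14) and 4.07-fold in WT (-2.03 ± 0.14). Ch25h rose 3.56-fold in Nos2-/- (log2 change 1.83 ± 0.15, adjusted p = 1.1e-07) and 1.88-fold in WT (0.91 ± 0.15, adjusted p = 0.00014).

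Of the 8 fatty acid enzymes, 7 fell in Nos2-/- and 6 in WT, and none rose. Fads1, the front-end desaturase of polyunsaturated fatty acids, read 6.43, 6.63 and 6.46 in stimulated Nos2-/- against 10.08, 10.13 and 10.11 in untreated Nos2-/- arrays, and 6.98, 6.85 and 6.87 in stimulated WT against 10.12, 10.18 and 10.15 in untreated WT arrays. On this probe set it had the deepest fall of the 38 genes, 12.2-fold in Nos2-/- (log2 change -3.60 ± 0.07, adjusted p = 4.1e-14) and 9.49-fold in WT (-3.25 ± 0.07, adjusted p = 1.2e-13). Another, dimmer Fads1 probe set fell (log2 change -0.70 in Nos2-/- and -0.59 in WT), and the average of both was at -2.15 in Nos2-/- and -1.92 in WT. Elovl6, which lengthens palmitate, read 3.93, 3.92 and 4.02 in stimulated Nos2-/- against 6.53, 6.71 and 6.62 in untreated Nos2-/- arrays, and 3.98, 3.90 and 3.57 in stimulated WT against 6.44, 6.74 and 6.50 in untreated WT arrays. It fell 6.35-fold in Nos2-/- and 6.68-fold in WT, and its stimulated signals lay close to 3.60, the level that marks the dimmest 10% of genes. With its probe sets averaged, Elovl6 was at -1.43 in Nos2-/- and -1.56 in WT.

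Fads2, the desaturase that acts before Fads1, fell 5.00-fold in Nos2-/- and 5.55-fold in WT. Fasn, fatty acid synthase, read 5.56, 6.51 and 5.62 in stimulated Nos2-/- against 7.85, 7.95 and 8.10 in untreated Nos2-/- arrays, and 6.01, 6.10 and 6.19 in stimulated WT against 7.79, 8.05 and 7.89 in untreated WT arrays. The groups did not overlap, and it fell 4.20-fold in Nos2-/- (-2.07 ± 0.19) and 3.51-fold in WT (-1.81 ± 0.19). Acaca, which makes malonyl-CoA, fell 1.89-fold in Nos2-/- and 2.08-fold in WT, and Acly, which splits citrate to supply acetyl-CoA, fell 1.53-fold in Nos2-/- and 1.66-fold in WT. With probe sets averaged, Acaca was at -0.43 in Nos2-/- and -0.52 in WT and Acly at -0.33 in Nos2-/- and -0.36 in WT, still called in each. Scd1, the stearoyl-CoA desaturase of liver and fat, was dim on all arrays (4.28 to 4.93) and passed the test in neither genotype, with -0.14 in Nos2-/- and -0.26 in WT. Without stimulated WT replicate 1, however, it was at -0.41 in WT (adjusted p = 0.0041). It was also called lower in WT with quantile normalisation (-0.38, adjusted p = 0.0077) or its probe sets averaged (-0.26, adjusted p = 0.0093). Scd2, the related desaturase, was at -1.26 in Nos2-/- (adjusted p = 0.00020) and -0.37 in WT (adjusted p = 0.16), or -0.74 in Nos2-/- and -0.22 in WT with its probe sets averaged.

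**Figure D2:**
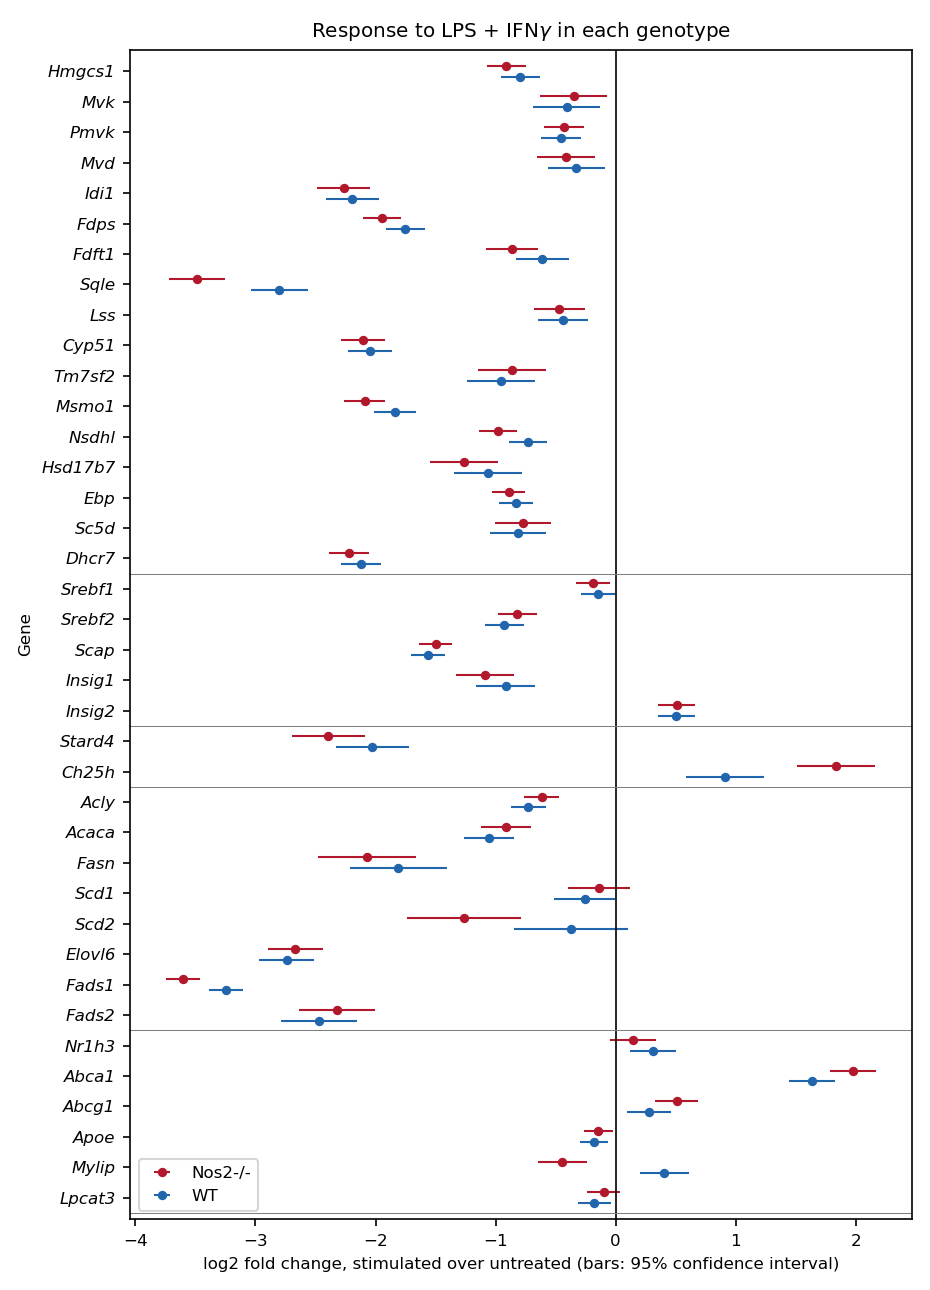
Log2 fold change of each gene, stimulated over untreated, in Nos2-/- (red) and WT (blue) BMDMs, with 95% confidence intervals from the limma fit of 12 arrays. Sterol enzymes lie left of 0 in both genotypes, from -3.49 (Sqle in Nos2-/-) to -0.33 (Mvd in WT), and Mylip is the gene whose points lie on opposite sides of 0 with intervals that do not overlap.

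The LXR genes divided. Abca1, the transporter that passes cholesterol to apolipoprotein A-I, read 12.36, 12.49 and 12.22 in stimulated Nos2-/- against 10.24, 10.39 and 10.51 in untreated Nos2-/- arrays, and 12.18, 12.16 and 12.22 in stimulated WT against 10.67, 10.42 and 10.57 in untreated WT arrays. It rose 3.94-fold in Nos2-/- (log2 change 1.98 ± 0.09, adjusted p = 2.0e-10) and 3.11-fold in WT (1.64 ± 0.09, adjusted p = 1.6e-09), with no overlap. Abcg1, which passes cholesterol to HDL, rose by 0.51 in Nos2-/- and 0.28 in WT on its brighter probe set, but its dimmer probe set read -0.33 in Nos2-/- and -0.30 in WT, neither called, and the average of both was at 0.09 in Nos2-/- and -0.013 in WT, not called. Nr1h3, which encodes LXRα, was at 0.14 in Nos2-/- (adjusted p = 0.19) and rose by 0.31 in WT (adjusted p = 0.0090). Its stimulated WT arrays (7.29, 7.26 and 7.51) all lay above its untreated WT arrays (7.05, 7.05 and 7.04), while the Nos2-/- groups overlapped. The stimulated means of Nr1h3 were 7.35 in Nos2-/- and 7.36 in WT, and the difference between its responses was not called. In Nos2-/- it was called higher with each array centred on its median (0.27, adjusted p = 0.023) or with quantile normalisation (0.42, adjusted p = 0.00018).

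Apoe, the apolipoprotein of macrophages, fell (log2 change -0.14 in Nos2-/- and -0.18 in WT), at signals of 14.13 to 14.36, close to the 14.7 maximum of the arrays. Lpcat3, which puts polyunsaturated chains into phospholipids, was at -0.10 in Nos2-/- (adjusted p = 0.20) and -0.18 in WT (adjusted p = 0.028). Mylip, the ubiquitin ligase also called IDOL that marks lipoprotein receptors for breakdown, fell by 0.44 in Nos2-/- and rose by 0.41 in WT. The call of Apoe in Nos2-/- was lost without any 1 of its untreated replicates or without stimulated replicate 1 or 2 (adjusted p of 0.052 to 0.12), that of Lpcat3 in WT without untreated replicate 2 or 3 or stimulated replicate 1 or 2 (0.068 to 0.098), and that of Abcg1 in WT without untreated replicate 2 (0.053).

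Across the 38 genes the responses of Nos2-/- and WT had the same sign in 37 (97.4%), against 87.3% of all genes, and were called the same way in 32 (84.2%), against 46.9% of all genes. Of these 32, 28 were lower and 4 higher. Among the 17 sterol enzymes 13 fell further in Nos2-/- than in WT, and none of these differences passed the test. The log2 change was lower in Nos2-/- than in WT for 9675 of all 18193 genes and for 21 of the 38.

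Genes of neighbouring steps that are not among the 38 gave a mixed picture. Of 11 genes of lipoprotein uptake and lysosomal cholesterol, 6 fell and 4 rose in each genotype. On the log2 scale, the scavenger receptor gene Marco rose by 3.31 in Nos2-/- and 3.42 in WT, and Olr1, a receptor for oxidised LDL, by 3.00 in Nos2-/- and 2.84 in WT, whereas Lipa, the lysosomal lipase, fell (log2 change -2.85 in Nos2-/- and -2.06 in WT), and the HDL receptor gene Scarb1 fell (log2 change -1.98 in Nos2-/- and -1.96 in WT). Cd36, the fatty acid and oxidised lipoprotein receptor, fell (log2 change -2.07 in Nos2-/- and -1.46 in WT). Of 9 genes of cholesterol ester storage and oxysterol enzymes, 3 fell in each genotype, and 3 rose in Nos2-/- and 4 in WT. Cyp27a1, a mitochondrial sterol hydroxylase, fell (log2 change -1.95 in Nos2-/- and -2.04 in WT), as did Nceh1, which hydrolyses cholesterol esters (log2 change -2.12 in Nos2-/- and -1.71 in WT), while the sterol carrier gene Stard5 rose by 1.34 in Nos2-/- and 1.10 in WT.

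Of 8 genes of SREBP processing and reductase degradation, 4 fell in each genotype and 3 rose in Nos2-/- and 2 in WT. Tmem97, a sterol-binding membrane protein gene, fell (log2 change -2.14 in Nos2-/- and -2.04 in WT). Both Golgi proteases of SREBP fell, Mbtps1 at -1.10 in Nos2-/- and -1.21 in WT, and Mbtps2 at -1.37 in Nos2-/- and -1.34 in WT, whereas Rnf145, a ubiquitin ligase, rose by 1.18 in Nos2-/- and 0.89 in WT. Of 6 further sterol and isoprenoid enzymes, 3 fell and 1 rose in Nos2-/-, and 2 fell and 2 rose in WT. Acat1, the mitochondrial thiolase, fell (log2 change -1.86 in Nos2-/- and -1.93 in WT), and Ggps1, which makes geranylgeranyl diphosphate, rose by 0.77 in Nos2-/- and 0.65 in WT.

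Of 25 genes of acetyl-CoA supply and further fatty acid steps, 13 fell and 8 rose in Nos2-/-, and 12 fell and 10 rose in WT. Acsl3, an acyl-CoA synthetase, fell (log2 change -2.69 in Nos2-/- and -2.55 in WT), as did the phosphatidate phosphatase gene Lpin1 (log2 change -2.13 in Nos2-/- and -2.27 in WT), while Dgat2, which closes triglyceride synthesis, rose by 2.73 in Nos2-/- and 2.27 in WT. Of 10 LXR partners and further LXR targets, 3 fell and 2 rose in Nos2-/-, and 2 fell and 3 rose in WT, led by the transporter gene Abca7, which rose by 1.23 in Nos2-/- and 1.08 in WT. The medians of these 6 lists lay between -0.997 and 0.21, against -0.88 in Nos2-/- and -0.80 in WT for the 38 genes. Lowest was the list of lipoprotein uptake and lysosomal cholesterol, at -0.997 in Nos2-/- and -0.77 in WT. In each genotype 5 of its 11 genes fell by at least 2-fold. Among the 38, the medians were -0.91 in Nos2-/- and -0.83 in WT for the sterol enzymes, -0.82 in Nos2-/- and -0.92 in WT for the SREBP factors and regulators, -1.67 in Nos2-/- and -1.43 in WT for the fatty acid enzymes, and 0.02 in Nos2-/- and 0.29 in WT for the LXR genes.

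**Figure D3:**
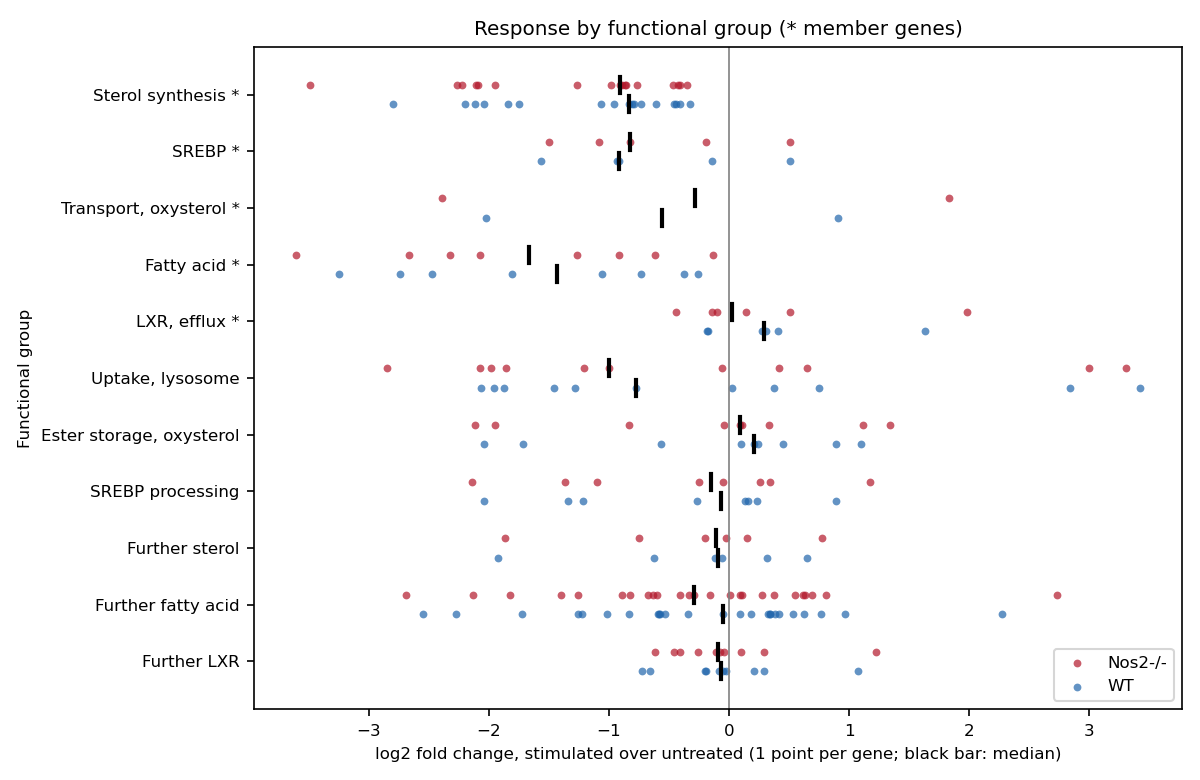
Log2 fold change, stimulated over untreated, of every gene (points) in 5 groups of members (marked with an asterisk) and 6 lists of neighbouring genes, in Nos2-/- (red) and WT (blue) BMDMs, with black bars for medians. The 17 sterol enzymes lie wholly left of 0, while each list of neighbouring genes holds genes on both sides.

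Without stimulation the genotypes were close. None of the 38 genes was called between untreated Nos2-/- and untreated WT BMDMs, where 1 gene was called higher and 1 lower of all 18193 (0.0055% each), and at an unadjusted p under 0.05 limma gave 0 of the 38 higher and 1 lower, against 4% of all genes in either direction. The 95% confidence intervals of the 38 differences lay between -0.49 and 0.46 on the log2 scale, so a difference of 1.5-fold or more lay outside each of them. Leaving out single arrays and the other settings tried also gave 0 calls among the 38.

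After stimulation 5 of the 38 genes differed between genotypes. Ch25h was higher in Nos2-/- (background 1.03% of all genes), and Mylip, Sqle, Fads1 and Scd2 were lower (background 1.91%). Arrays of the genotypes did not overlap for 8 of the 38 genes, against 17.1% of all genes, and the median difference over the 38 was -0.03, against -0.01 over all genes.

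Mylip read 9.23, 8.90 and 9.16 in stimulated Nos2-/- arrays and 10.05, 9.84 and 10.11 in stimulated WT arrays, against 9.47, 9.50 and 9.65 in untreated Nos2-/- and 9.58, 9.59 and 9.61 in untreated WT arrays. The stimulated Nos2-/- arrays were below, and the stimulated WT arrays above, all 6 untreated arrays. It was 1.87-fold lower in Nos2-/- than in WT after stimulation (log2 difference -0.90 ± 0.09, adjusted p = 8.2e-05), and remained called under each of the 15 other settings, at -0.98 to -0.80.

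Ch25h read 10.64, 10.41 and 11.19 in stimulated Nos2-/- arrays and 9.83, 10.13 and 9.87 in stimulated WT arrays, against 8.98, 8.96 and 8.79 in untreated Nos2-/- and 9.03, 9.10 and 8.98 in untreated WT arrays. Each stimulated Nos2-/- array exceeded each stimulated WT array, and the difference was 1.74-fold (0.80 ± 0.15, adjusted p = 0.0095), but was not called without variance moderation (adjusted p = 0.073) or in a fit of only the arrays compared (adjusted p = 0.074). Sqle was 1.57-fold lower in Nos2-/- than in WT after stimulation (-0.65 ± 0.11, adjusted p = 0.0041), with its stimulated arrays not overlapping. Fads1 was 1.32-fold lower (-0.40 ± 0.07, adjusted p = 0.0040), also without overlap, but its dimmer probe set differed by 0.06 (adjusted p = 0.81). With both averaged the difference was -0.17 (adjusted p = 0.21), and in a fit of only the arrays compared its adjusted p was 0.066.

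Scd2 read 6.61, 6.97 and 5.70 in stimulated Nos2-/- arrays and 7.33, 7.27 and 7.40 in stimulated WT arrays, against 7.62, 7.68 and 7.76 in untreated Nos2-/- and 7.68, 7.85 and 7.58 in untreated WT arrays. The stimulated Nos2-/- arrays were spread over more than 1 log2 unit and all lay below the WT arrays. The difference of -0.91 ± 0.22 (adjusted p = 0.041) was called in 7 of 15 other settings, and its adjusted p was 0.059 without stimulated Nos2-/- replicate 1 and 0.094 to 0.11 without any 1 stimulated WT array. Stimulated Nos2-/- replicate 3 was the most extreme array for Scd2, Ch25h and Sqle. Without it the differences were -0.55 for Scd2 (adjusted p = 0.020), 0.58 for Ch25h (adjusted p = 0.012) and -0.50 for Sqle (adjusted p = 0.0062).

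**Figure D4:**
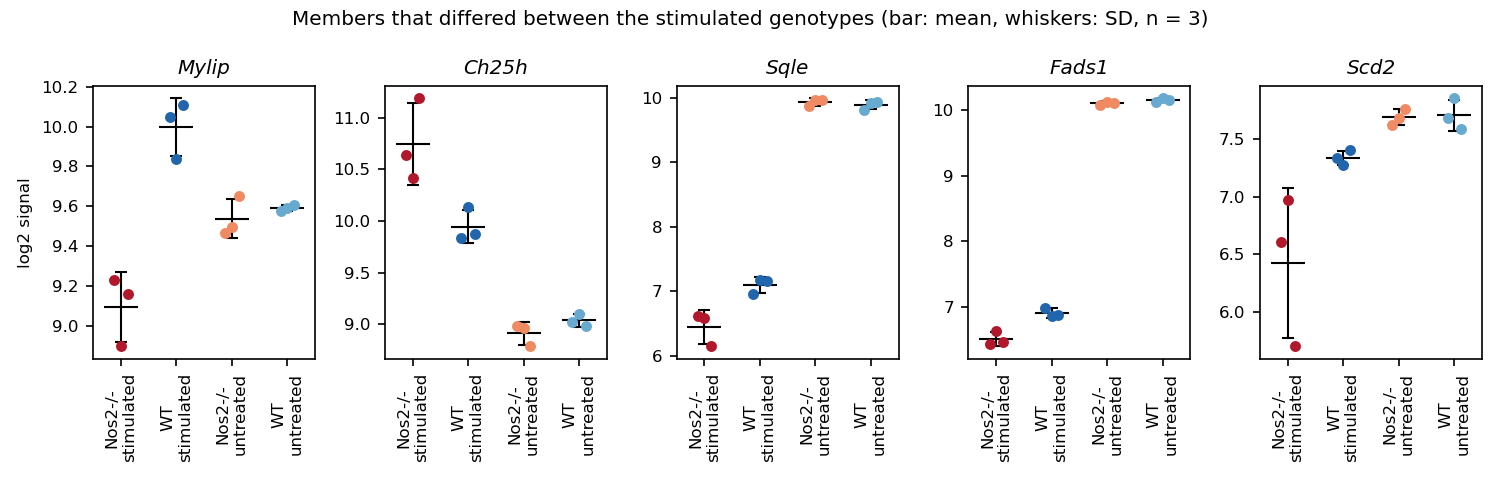
Log2 signal of Mylip, Ch25h, Sqle, Fads1 and Scd2 on each array (points) with the group mean (bar) and SD (whiskers, n = 3), each gene on its own axis that does not start at 0. In each panel the 3 stimulated Nos2-/- arrays lie on 1 side of the 3 stimulated WT arrays, while for Mylip the untreated arrays (9.47 to 9.65) lie between them.

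For the 33 genes not called between stimulated Nos2-/- and stimulated WT BMDMs, the 95% confidence intervals ran from -0.67 (Stard4) to 0.36, so each lay within a 2-fold difference and 31 within a 1.5-fold one. For the 16 other sterol enzymes they ran from -0.45 (Nsdhl) to 0.36. Nsdhl, a sterol dehydrogenase, was at -0.28 (adjusted p = 0.062) and Stard4 at -0.36 (adjusted p = 0.23). Without stimulated Nos2-/- replicate 2, Stard4 was at -0.58 (adjusted p = 0.0032), and without replicate 1, Nsdhl was at -0.35 (adjusted p = 0.024). Nsdhl was also called with an intensity trend, quantile normalisation, averaged probe sets or dim genes left out (adjusted p of 0.024 to 0.048).

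The difference between the response of Nos2-/- and that of WT asks whether the genotype changed the effect of stimulation, and it was called for 1 of the 38 genes, against 0.676% of all genes called lower and 0.302% called higher. For Mylip the difference between responses was -0.85 ± 0.13 (adjusted p = 0.0057). Sqle had a difference of -0.69 ± 0.15 (adjusted p = 0.057), Ch25h of 0.92 ± 0.21 (adjusted p = 0.066), Fads1 of -0.36 ± 0.10 (adjusted p = 0.12) and Scd2 of -0.89 ± 0.31 (adjusted p = 0.30), all short of the threshold. Of the intervals for the 37 uncalled genes, 34 lay within a 2-fold difference and 29 within a 1.5-fold one, and the widest bounds were -1.56 (Scd2) and 1.39 (Ch25h). Sqle was called without any 1 stimulated Nos2-/- array (-0.77 to -0.54), Ch25h without replicate 2 (1.09) or 3 (0.70) of that group, and Stard4 (-0.58), Scd2 (-1.17) and Fads1 (-0.42) without replicate 2.

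Some neighbouring genes differed between the stimulated genotypes as well. Lipa was at -0.78 ± 0.06 (adjusted p = 1.3e-05), Cd36 at -0.60 ± 0.09 (adjusted p = 0.0013) and Nceh1 at -0.41 ± 0.08 (adjusted p = 0.010), all lower in Nos2-/-. Me1, the cytosolic malic enzyme that supplies NADPH, was at -0.76 ± 0.08 (adjusted p = 8.1e-05) and Acss2, the acetyl-CoA synthetase, at -0.67 ± 0.11 (adjusted p = 0.0024), while Dgat2 was higher in Nos2-/- at 0.56 ± 0.11 (adjusted p = 0.011). Me1 fell by 0.41 in Nos2-/- and rose by 0.41 in WT after stimulation, with a difference between responses of -0.83 ± 0.11 (adjusted p = 0.0017). The difference between responses was also called for Lipa (-0.79 ± 0.09, adjusted p = 0.00056), Cd36 (-0.61 ± 0.12, adjusted p = 0.032) and Acss2 (-0.69 ± 0.15, adjusted p = 0.047). None of the SREBP processing genes, LXR partners or further sterol enzymes was called between the stimulated genotypes.

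Nos2 lies on chromosome 11 (78920787 to 78960226, GRCm38.p6), where the targeted allele can carry flanking DNA of the strain it was made in. Srebf1, Acly, Acaca and Fasn lie on the same chromosome, 18.7, 21.6, 5.2 and 41.9 Mb away, and none of them was called between the genotypes, stimulated or untreated. Without stimulated Nos2-/- replicate 2, however, Fasn was lower in stimulated Nos2-/- BMDMs (log2 difference -0.51, adjusted p = 0.011).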

How the data were processed

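The deposited log2 values were made by the authors from the scanned arrays with RMA, which corrects background, normalises between arrays and summarises each probe set, in Partek Genomic Suite (version not given in the sources used here). RMA compresses small signals and sets arrays to 1 distribution. Of 45101 probe sets, 64 controls, 932 assigned to several genes and 9160 unnamed ones were left out. Each of 18193 genes was read from its brightest single-gene probe set by mean over all arrays. The 34945 single-gene probe sets were named from the platform annotation.

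limma (version 3.58.1, R 4.3.3) was fitted to the 12 arrays with a mean for each of the 4 groups. Calls were made at a Benjamini-Hochberg adjusted p under 0.05 over all genes, two-sided, with no minimum fold. The methods' thresholds (1.5-fold and a false discovery rate of 0.5), other normalisations, fits, filters, a replicate block and the omission of each array were alternatives. The fit was tested on simulated data with known changes. Values ± are standard errors. Every member was accounted for, those called between genotypes and those with the largest responses in each group being given by array, and up to 4 genes per neighbouring list and comparison were named by size of change among called genes. Members, lists and motifs were chosen with earlier results of these data known. Depth has no meaning for arrays, and their number limits the precision.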

Additional observations from a re-analysis of the deposited data

Results flagged for a closer look

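The response of Mylip to stimulation differed between Nos2-/- and WT BMDMs by -0.85 on the log2 scale (limma, adjusted p = 0.0057), with a fall on 3 of 3 stimulated Nos2-/- arrays and a rise on 3 of 3 stimulated WT arrays relative to all untreated arrays of the same genotype. It was called in 19 of 20 other settings, and without variance moderation its adjusted p was 0.052.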

How the results depend on the processing

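With each array centred on its median, the median change of all genes moved to 0.17 in Nos2-/- (0.05 as reported) and 0.18 in WT (0.08 as reported), and the share of calls that were higher to 64.9% in Nos2-/- (48.3% as reported) and 64.8% in WT (51.1% as reported), while 28 members fell and 5 rose in Nos2-/- and 26 fell and 6 rose in WT. With quantile normalisation 26 members fell and 5 rose in Nos2-/-, and 25 fell and 6 rose in WT. Of the called members, 26 of 35 in Nos2-/- and 25 of 35 in WT were called under every alternative. With the thresholds of the methods, 2 members were higher in the Nos2-/- response (4 as reported) and 2 in the WT response (6 as reported). With all probe sets of each gene averaged, Abcg1 turned to -0.013 in WT (adjusted p = 0.92), its probe sets having opposite signs. Between the stimulated genotypes, 0 members were higher without moderation and with only the arrays compared (1 as reported), and 2 were lower with only the arrays compared (4 as reported). For the difference between responses, 1 member was higher with an intensity trend, without dim genes and with the thresholds of the methods (0 as reported), and 2, 3 and 3 were lower under these settings and 0 without moderation (1 as reported). Leaving out 1 array gave 28 to 30 members lower and 4 higher in the Nos2-/- response, 26 to 29 lower and 5 to 6 higher in the WT response, 3 to 6 lower and 1 higher between the stimulated genotypes, and 1 to 5 lower and 0 to 1 higher for the difference between responses, where 5 were lower without stimulated Nos2-/- replicate 2. Other causes of these shifts were not tested.

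Over all groups, pairing by replicate number was not clear. Same-numbered arrays correlated at -0.26 to 0.21 after group means were removed (median 0.033), and 2 of 18 pairs exceeded 0.1. Differently numbered arrays correlated at -0.17 to 0.27 (median -0.007), and 2 of 36 pairs exceeded 0.1. Between untreated Nos2-/- and untreated WT, same-numbered arrays correlated at 0.032 to 0.211 and differently numbered ones at -0.155 to 0.077. With the replicate number as a block, 30 members fell and 4 rose in the Nos2-/- response, 30 fell and 6 rose in the WT response, 4 were lower and 1 higher between the stimulated genotypes, 0 differed untreated, and 1 differed in response. The block ended the call of Apoe in Nos2-/- (adjusted p = 0.052) and made that of Scd1 in WT (adjusted p = 0.026), and it changed no other member's call.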

Other observations

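The 38 genes had 82 single-gene probe sets, and 24 genes had several.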
